A study of Bos taurus with 12 samples.

Results

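The mitochondrial genome of cattle was examined in right ventricle RNA. This chamber drives blood through the lung arteries. All genes that the deposited table places on the chromosome named MT were taken, 37 of the 24616 genes in the table. Matching by position to RefSeq's gene list for cattle, 13 of them encode proteins, 22 encode transfer RNAs and 2 encode ribosomal RNAs. The samples came from 12 Angus steers, each of wild-type genotype and each giving 1 library. All were born and kept at 2170 m (7120 ft) under natural low oxygen on grass hay with added grain, castrated at 6 to 8 months and slaughtered at 13 to 15 months. Repeated heart catheterization and clinical signs had put them into 3 groups. There were 6 steers with low pulmonary arterial pressure (low PAP), labelled hypoxia-tolerant, 3 with pulmonary hypertension but a healthy heart (PH-healthy) and 3 with pulmonary hypertension and right heart failure (PH-failure). No steer from low elevation was analysed here, so every comparison is among animals living in the same thin air.

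Heart muscle is packed with mitochondria, which make most of its ATP by oxidative phosphorylation. The small circular genome inside them encodes only core subunits of 4 of the respiratory complexes, and the nucleus encodes all the other subunits and the whole machinery that copies, transcribes and translates that genome. The protein genes on MT are the 7 ND genes of complex I (NADH dehydrogenase, which takes electrons from NADH), CYTB of complex III (which passes electrons from ubiquinone to cytochrome c), COX1, COX2 and COX3 of complex IV (cytochrome c oxidase, which hands them to oxygen), and ATP6 and ATP8 of complex V (ATP synthase). Both strands are transcribed as long precursors, and the messengers are released where the transfer RNAs between them are cut out. ND6 alone among the protein genes is read from the light strand.

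Depth was lowest in PH-failure replicate 1, with 14739237 mapped reads, and highest in low-PAP replicate 5, with 31090198, as recovered from the steps between the deposited values. Counting error on the mitochondrial protein genes was therefore small, from 0.0546% of the value for COX1 in low-PAP replicate 1 (3359005 reads) to 0.943% for ND4L in PH-failure replicate 1 (11245 reads). The 12 ventricular muscle markers were all present, with summed levels of 73070.5 to 94878 RPKM (reads scaled to gene length and to all mapped reads of the library) in low PAP, 77078 to 85550.0 in PH-healthy and 53831 to 84862 in PH-failure. PH-failure replicate 3 stood apart, with the lowest muscle sum, the highest adipocyte sum (1563 against 259 to 543 RPKM in the other 11 libraries) and the highest endothelial sum (233 against 77.5 to 154 RPKM). Other cell types' markers moved with pressure too. Between both PH groups and low PAP, 4 of 7 fibroblast, 5 of 6 endothelial, 4 of 6 smooth muscle and 4 of 6 macrophage markers rose, where 37.3% of all genes tested rose. Of the 12 muscle markers, 5 fell (TNNI3 by 0.55, TNNC1 by 0.46, PLN by 0.57, CKM by 0.72 and ACTC1 by 1.00 on the log2 scale) and MYH7 rose by 0.40, where 10.4% of all genes fell. Of 3 atrial markers measured, MYL7 fell by 2.71 ± 0.30 (SE) on the log2 scale (limma adjusted p = 8.01e-05), while NPPA changed by 1.10 ± 0.66 and MYL4 by 0.39 ± 0.51 (adjusted p = 0.188 and 0.541). The atrial sum was 3085 to 6775 RPKM in low PAP and 425 to 1837 in the PH animals. That sum is nearly all MYL7, which averaged 4812 RPKM in low PAP against 33.6 for NPPA and 7.48 for MYL4. The part of these shifts in the mitochondrial values was not tested, and in whole tissue, fewer cells of a type and less RNA per cell cannot be told apart.

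All 24 RNA genes of the mitochondrial genome were listed at 0 in all 12 libraries. The transfer RNA genes span 60 to 75 bases and the ribosomal RNA genes 955 and 1571 bases. All 767 nuclear genes of 50 to 79 bases were likewise listed at 0 throughout, as were 2868 of 2885 genes of 80 to 199 bases. The shortest mitochondrial gene with reads was ATP8, at 201 bases. The ribosomal RNA genes are longer than many of the protein genes with values, so length alone does not set them apart. Whether the authors' counting left out RNA genes was not given in the sources used here. No level of a mitochondrial ribosomal or transfer RNA is reported for this reason, and all results below concern the 13 protein genes, each of which passed the filter on low values in all 12 libraries.

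The mitochondrial messengers dominated the ventricle. Together they took 22.3 to 29.7% of exon reads in low PAP, 18.2 to 20.6% in PH-healthy and 17.7 to 20.2% in PH-failure. All 13 were among the 100 most abundant genes of every library, and 10 or 11 were among the 20 most abundant. Every PH library lay below every low-PAP library in this share. Within library series 55 (a number in the library labels), the mean share was 23.9% in low PAP and 19.4% in PH-healthy, with 17.7% in the single PH-failure library. Within series 56 it was 24.97% in low PAP, 20.1% in the single PH-healthy library and 19.98% in PH-failure.

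**Figure D1:**
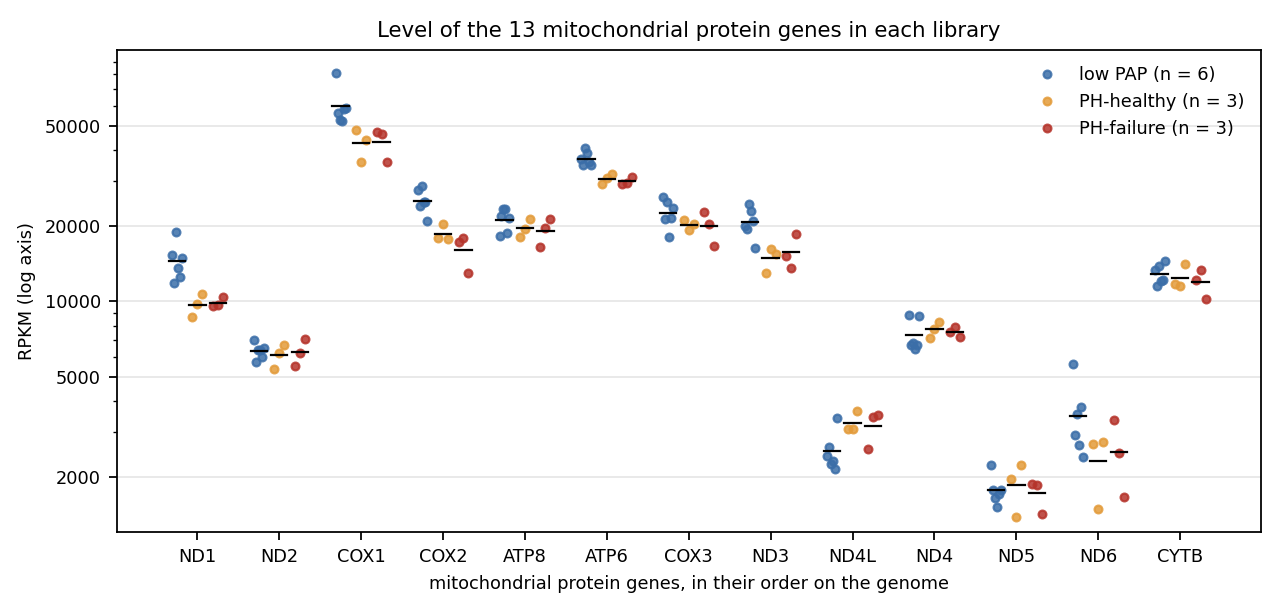
Level of each mitochondrial protein gene in each of the 12 libraries, in RPKM on a log axis, ordered by position on the genome. Each point is 1 animal and black lines are group means (low PAP n = 6, PH-healthy n = 3, PH-failure n = 3); COX1 was highest and ND5 lowest in every library, and ND1, COX1, COX2 and ATP6 were lower in all PH animals than in all low-PAP animals.

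Levels spanned a wide range although the genes sit on shared precursors. On the per-length scale, COX1 (ENSBTAG00000043561, MT 5687 to 7231), the catalytic core of complex IV, was the most abundant in low PAP at 59846 ± 10675 RPKM (SD, n = 6). ATP6 (ENSBTAG00000043584, MT 8290 to 8970), which forms the proton channel of ATP synthase, came next at 36977 ± 2389 RPKM. COX2 followed at 25144, COX3 at 22498, ATP8 at 21135, ND3 at 20597, ND1 at 14499 and CYTB at 12871 RPKM. The other complex I genes were far lower, with ND4 at 7358, ND2 at 6336, ND6 at 3487, ND4L at 2526 and ND5 at 1777 RPKM. In that order, the ranges of neighbours were apart only between COX1 and ATP6, ATP6 and COX2, CYTB and ND4, and ND2 and ND6. The remaining neighbours overlapped between animals, though ND3 was above ND1, ND1 above CYTB, ND4 above ND2 and ND4L above ND5 within each of the 6 low-PAP animals. COX1 stood 31.7 to 36.2 times above ND5 in low PAP and 19.7 to 25.9 times above it in the PH animals, so the spread between the top and the bottom gene was narrower in every PH library.

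The order changed in places with pressure. CYTB lay below ND1 in all 6 low-PAP animals, above it in all 3 PH-healthy animals and above it in 2 of 3 PH-failure animals. ND4L lay below ND6 in 5 of 6 low-PAP animals, above it in all 3 PH-healthy and in 2 of 3 PH-failure animals. COX2 ranked in the third place by mean in low PAP and in the fifth in both PH groups, behind COX3 and ATP8. COX1, ATP6, ND4, ND2 and ND5 held ranks 1, 2, 9, 10 and 13 in every library.

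Setting both PH groups against low PAP asks how the ventricle differed under raised lung pressure, whatever the clinical state. Of the 13 genes, 5 fell (ND1, COX2, COX1, ND3 and ATP6), 1 rose (ND4L) and 7 did not pass limma's test at an adjusted p of 0.05. Over all 11374 genes tested, 10.4% fell and 37.3% rose in this comparison. The median log2 fold change of the 13 genes was -0.17, against 0.19 for all genes tested, and 12 of the 13 lay below that all-gene median. In RPKM, 4 genes (ND1, COX1, COX2 and ATP6) were lower in every PH animal than in every low-PAP animal, where 2.93% of all tested genes were so, and no mitochondrial gene was higher without overlap, where 13.8% of all genes were. At an unadjusted p under 0.05 there were 7 of the 13 genes, a share like that over all genes (6329 of 11374).

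Among the complex I genes, ND1 (ENSBTAG00000043558, MT 3101 to 4056), a membrane-arm subunit next to the ubiquinone site, changed most. Its level in low PAP was 11868 at the lowest, 14268 at the median and 18829 RPKM at the highest. It was 8658, 9711 and 10642 RPKM in the 3 PH-healthy animals and 9533, 9652 and 10400.2 RPKM in the 3 PH-failure animals. The highest PH animal was thus below the lowest low-PAP animal, and both PH groups sat at nearly the same level. The log2 fold change was -0.56 ± 0.12 (SE, limma adjusted p = 0.00361), or -0.56 within library series 55 and -0.57 within series 56, where neither call was kept with 6 libraries each (adjusted p = 0.0994 and 0.0712).

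ND3 (ENSBTAG00000043568, MT 9823 to 10168), a small subunit at the same end of the membrane arm, also fell. In low PAP it ranged from 16321 over a median of 20352.5 to 24374 RPKM. It was 12926, 16178 and 15364 RPKM in PH-healthy and 15177, 13545 and 18528 RPKM in PH-failure. PH-failure replicate 3 was the only PH animal inside the low-PAP range. The log2 fold change was -0.43 ± 0.13 (limma adjusted p = 0.0146), and -0.49 without that library. Within series 55 it was -0.24 and within series 56 -0.60, so its size differed between the series.

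ND4L (ENSBTAG00000043559, MT 10239 to 10535), a short subunit whose messenger shares its RNA with that of ND4, was the only gene called higher. Its low-PAP level was 2148 at the lowest, 2357 at the median and 3426 RPKM at the highest. It was 3103, 3097 and 3657 RPKM in PH-healthy and 2569, 3451 and 3513 RPKM in PH-failure. The groups overlapped through low-PAP replicate 6, which held the 3426 RPKM, and through PH-failure replicate 1. The log2 fold change was 0.36 ± 0.13 (limma adjusted p = 0.0376), and this call was weak. It was lost on leaving out any 1 of low-PAP replicates 1, 3, 4 and 5, the 3 PH-healthy libraries or PH-failure replicates 2 and 3 (adjusted p of 0.0526 to 0.0864), and under all 3 other scalings, of which median-ratio scaling brought the change to 0.11. Within series 55 and 56 it was 0.43 and 0.32.

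The remaining complex I genes did not pass. ND6 (ENSBTAG00000043546, MT 13913 to 14440), the light-strand gene, varied most between animals, with a coefficient of variation of 33.2% in low PAP. It ran from 2390.2 over a median of 3232 to 5598 RPKM in low PAP. It was 2710, 1480.3 and 2742 RPKM in PH-healthy and 3371, 2484 and 1660 RPKM in PH-failure. The groups overlapped, and the log2 fold change of -0.53 ± 0.24 was close to that of ND1, with an SE of 0.24 against 0.12 (limma adjusted p = 0.0805), and was -0.80 within series 55 and -0.33 within series 56. The call was gained without low-PAP replicate 6 (adjusted p = 0.0447) or PH-failure replicate 1 (0.0383). Since use of strand was not given in the sources used here, reads of ND6 and reads of the opposite strand cannot be told apart. ND2, ND4 and ND5, all proton-pumping subunits of the membrane arm, changed by -0.04 ± 0.10, 0.06 ± 0.11 and -0.00 ± 0.14.

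Of the complex IV genes, COX1 and COX2, which hold the metal centres of the enzyme, fell and COX3 did not pass. COX2 (ENSBTAG00000043556, MT 7374 to 8057, listed as COII) ranged in low PAP from 20826 over a median of 24865 to 28816 RPKM. It was 17898, 20251 and 17623 RPKM in PH-healthy and 17238, 17930.3 and 12908 RPKM in PH-failure. No PH animal reached the low-PAP range, and PH-failure replicate 3 was the lowest of all. Its log2 fold change was -0.54 ± 0.12 (limma adjusted p = 0.00348), at -0.66 within series 55 and -0.52 within series 56, and -0.47 without PH-failure replicate 3.

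COX1 ranged in low PAP from 52421 over a median of 57201 to 80945 RPKM. It was 47864, 35920.1 and 43679 RPKM in PH-healthy and 47108, 46230.1 and 35970.3 RPKM in PH-failure. The groups did not overlap, and low-PAP replicate 1 lay far above the other 5 low-PAP animals. The log2 fold change was -0.48 ± 0.14 (limma adjusted p = 0.0127), and -0.39 without low-PAP replicate 1 (adjusted p = 0.0266). Within series 55 and 56 it was -0.58 and -0.39. COX3 (ENSBTAG00000043560, MT 8970 to 9750), the structural core subunit beside them, changed by -0.17 ± 0.12 (adjusted p = 0.265), with 17949 to 26075 RPKM in low PAP and 16517 to 22733 RPKM over the PH animals.

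In complex V, ATP6 fell by a smaller amount than ND1, COX1 or COX2, from a tight range. Its low-PAP level was 34855 at the lowest, 36274 at the median and 40835 RPKM at the highest. It was 29176.5, 30936 and 32226 RPKM in PH-healthy and 29294, 29650.0 and 31351 RPKM in PH-failure. The groups did not overlap, and the log2 fold change was -0.28 ± 0.09 (limma adjusted p = 0.0231), at -0.24 within series 55 and -0.33 within series 56. The call was lost without PH-healthy replicate 1 (adjusted p = 0.0626). ATP8 (ENSBTAG00000043564, MT 8129 to 8329), the small subunit read in another frame from the same messenger as ATP6, changed by -0.13 ± 0.11 (adjusted p = 0.344). Their genes overlap by 40 bases, and how reads in the shared part were counted was not given in the sources used here.

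CYTB (ENSBTAG00000043550, MT 14514 to 15653, listed as MT-CYB), the only mitochondrial subunit of complex III, overlapped between groups. It ran from 11497.5 over a median of 12732 to 14414 RPKM in low PAP. It was 11687, 11488 and 14032 RPKM in PH-healthy and 12196, 13306 and 10248 RPKM in PH-failure, with 1 animal of each PH group below the low-PAP range. The log2 fold change was -0.08 ± 0.11 (limma adjusted p = 0.534), within series 55 -0.24 and within series 56 -0.01.

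**Figure D2:**
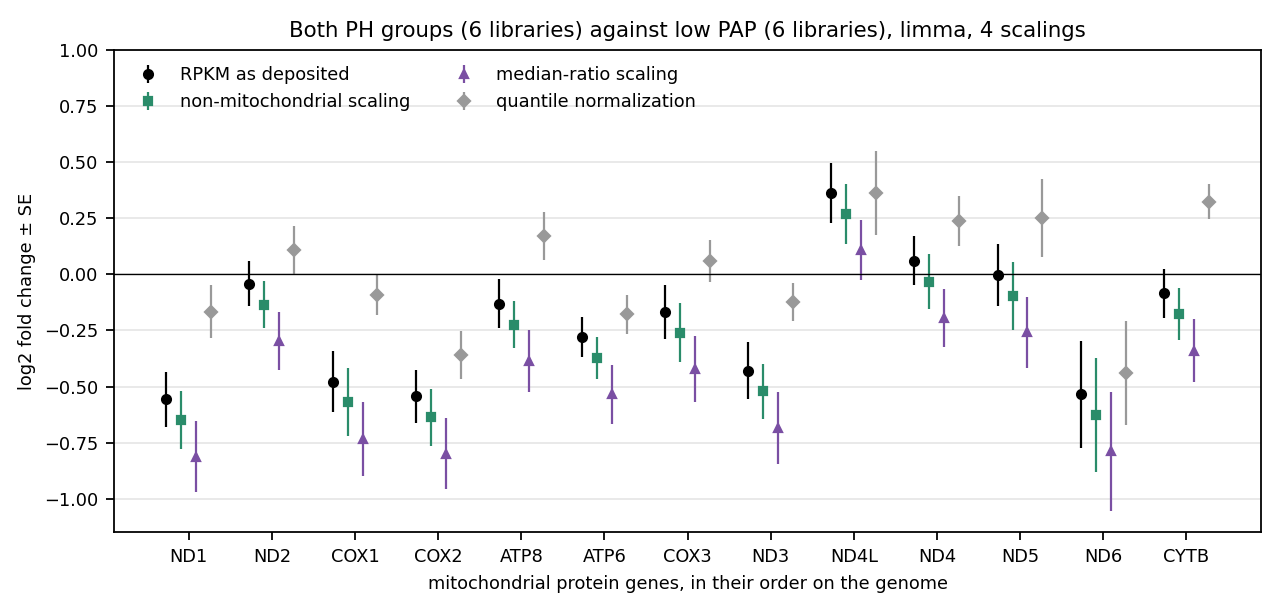
Log2 fold change of each mitochondrial protein gene between both PH groups (6 libraries) and low PAP (6 libraries) from limma, with bars of ± SE, for RPKM as deposited and 3 other scalings. Median-ratio and non-mitochondrial scaling shifted all genes down together, to medians of -0.42 and -0.26, and quantile normalization shifted them up, to a median of 0.06.

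The zero point depended on the scaling. RPKM divides by all mapped reads, of which the mitochondrial genes are a large part. The all-gene median of 0.19 became 0.12 when libraries were scaled to their non-mitochondrial reads and -0.01 under median-ratio scaling. Under these, 5 and 8 mitochondrial genes fell and none rose, while over all genes 1671 fell and 3401 rose with the former and 2656 fell and 2373 rose with the latter. Quantile normalization forces the same ladder of values on each library. The all-PH log2 fold changes of the mitochondrial genes then ran from -0.44 (ND6) to 0.36 (ND4L). As deposited they ran from -0.56 (ND1) to 0.36 (ND4L). Under quantile normalization, 1 mitochondrial gene fell (COX2) and 1 rose (CYTB), while over all genes 2405 fell and 1930 rose. Relative to the all-gene median, the mitochondrial median was lower by deposited, non-mitochondrial and median-ratio scaling and higher by quantile normalization (0.06 against -0.03).

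The comparison of PH-failure and low PAP shows how the failing ventricle differed from that of animals classed as low PAP. Here 3 of 13 genes fell, COX2, ND1 and COX1, and none rose, against a background of 5.79% lower and 28% higher over all genes. COX2 changed by -0.66 ± 0.15 (limma adjusted p = 0.00785), and its call was kept without any single library. ND1 changed by -0.54 ± 0.15 (adjusted p = 0.0186). Leaving out PH-failure replicate 2 ended that call (adjusted p = 0.0547). COX1 changed by -0.47 ± 0.17 (adjusted p = 0.0462) and kept its call only when the library left out was low-PAP replicate 6 or PH-failure replicate 1. Without PH-failure replicate 3 it changed by -0.34 (adjusted p = 0.177). Without PH-failure replicate 2 the count was 1, where 2367 of all genes were called. Without low-PAP replicate 6 it was 6, where 4669 of all genes were, with ATP6 (adjusted p = 0.0447), ND3 (0.027) and ND4L (0.0264) added. With all libraries those genes stood at -0.30 ± 0.11, -0.39 ± 0.15 and 0.33 ± 0.16 (adjusted p = 0.0557, 0.0669 and 0.121).

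Comparing PH-healthy with low PAP asks what was already different in hypertensive animals without failure. There 4 of 13 genes fell, ND1, COX1, COX2 and ND3, and none rose, where 8.15% of all genes fell and 26.6% rose. ND1 changed by -0.57 ± 0.15 (limma adjusted p = 0.0134), COX1 by -0.49 ± 0.17 (0.0386), COX2 by -0.43 ± 0.15 (0.0368) and ND3 by -0.47 ± 0.15 (0.0331). These calls were near the threshold. ND1's was lost without PH-healthy replicate 1 (adjusted p = 0.0729), after which none of the 13 genes was called, against 1890 of all genes. COX1's was lost without low-PAP replicates 1 or 5 or any PH-healthy library, and those of COX2 and ND3 without low-PAP replicates 1, 3, 4 or 5 or any PH-healthy library, with fold changes of -0.37 to -0.58 for COX1, -0.39 to -0.49 for COX2 and -0.37 to -0.54 for ND3. This comparison shares its 6 low-PAP animals with the one before.

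PH-failure was also set directly against PH-healthy, which asks what went with failure itself at high pressure. None of the 13 genes was called by limma, and none had an unadjusted p under 0.05. Among all genes 0% were called higher and 0.00879% lower, with 308 at an unadjusted p under 0.05. limma-voom on recovered reads called none of the 13 either. The widest mean differences were COX2 at -0.23 (95% interval -0.59 to 0.14) and ND6 at 0.11 (-0.62 to 0.84), and ND1 and COX1 stood at 0.03 (-0.34 to 0.41) and 0.02 (-0.40 to 0.44). For ND1 and COX1 these intervals ended nearer to 0 than their all-PH changes against low PAP, while for COX2 and ND6 they did not. Set against the PH-failure change of COX2 (-0.66), its interval did end nearer to 0. With 3 animals a side, no difference was detectable, and equality is not shown.

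Ratios between genes in the same library do not depend on the scaling of that library. For 3 pairs the ratio was tested by 2-sided exact permutation over animals, 12 tests in all. CYTB to ND1 compares the last and the first protein gene on the genome. The ratio was 0.871, 0.969, 0.734, 0.884, 0.974 and 0.966 in low-PAP replicates 1 to 6. It was 1.35, 1.18 and 1.32 in PH-healthy and 1.28, 1.38 and 0.985 in PH-failure. Every PH animal was above every low-PAP animal, though PH-failure replicate 3 exceeded the highest of them by little. The mean log2 ratio was higher by 0.47 in all PH animals (exact permutation p = 0.00216, Benjamini-Hochberg adjusted p = 0.026), by 0.52 in PH-healthy and by 0.43 in PH-failure (p = 0.0119 and adjusted p = 0.0476 in both). These are the smallest p the 6 against 6 and 6 against 3 designs allow. With 1 library left out, the call for all PH was lost in 5 of 12 cases (low-PAP replicates 1 to 5). In those cases the adjusted p of the exact permutation test was at most 0.052, and every PH animal still lay above every remaining low-PAP animal. The call was lost in 10 for PH-healthy (all but low-PAP replicate 6 and PH-failure replicate 1) and in 11 for PH-failure (all but low-PAP replicate 6). In the 6 against 3 designs, leaving out an animal compared raises the smallest p, so a loss there says little about that animal. Leaving out a library of the third group changes no ratio compared, only the adjustment over the 12 tests. Within series 55 and 56 the all-PH difference was 0.38 and 0.56. For PH-failure it was 0.16 in series 55, which holds only PH-failure replicate 3, and 0.55 in series 56. It was 0.57 without that library. Between PH-failure and PH-healthy the ratio differed by -0.09 (exact permutation p = 0.7, where 3 against 3 cannot go below 0.1).

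**Figure D3:**
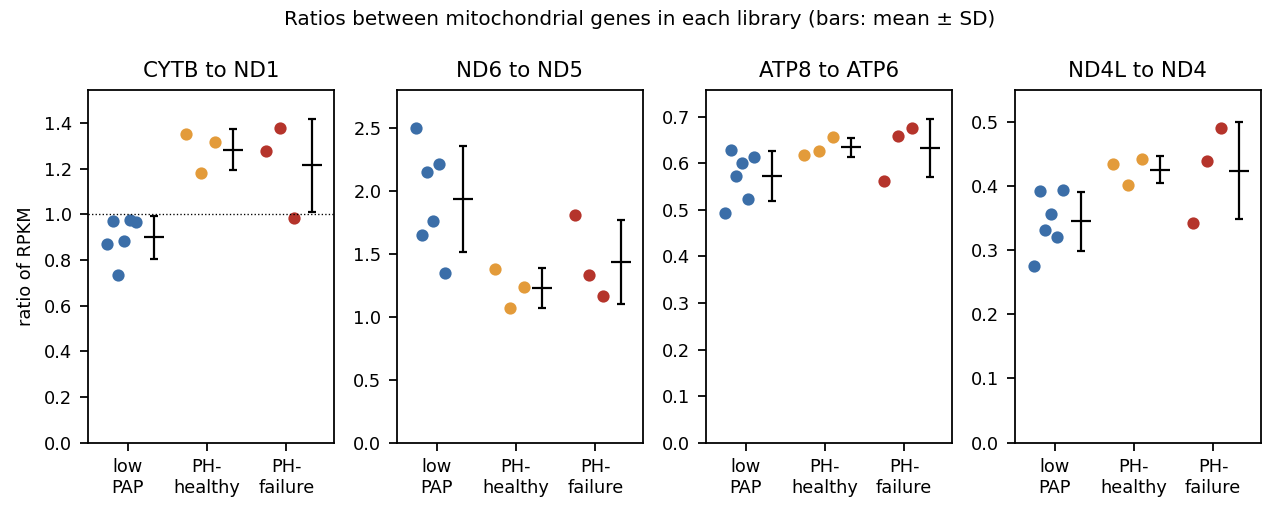
Ratio of RPKM between 4 pairs of mitochondrial genes in each library, on linear axes from 0; each point is 1 animal and black bars are mean ± SD (low PAP n = 6, PH-healthy n = 3, PH-failure n = 3). The CYTB to ND1 ratio was 0.734 to 0.974 in low PAP and 0.985 to 1.38 in the PH animals, with the dotted line at equal levels; for the other 3 pairs the PH animals as a whole overlapped low PAP, though ND4L to ND4 was higher in all PH-healthy animals than in all low-PAP animals.

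The other ratios did not pass. ND6 to ND5 sets the light-strand gene against its overlapping neighbour on the heavy strand. It averaged 1.94 ± 0.43 in low PAP, 1.23 ± 0.16 in PH-healthy and 1.44 ± 0.33 in PH-failure. The all-PH log2 difference was -0.53 (exact permutation p = 0.0216, adjusted p = 0.0649). It passed without low-PAP replicate 6 (-0.63, adjusted p = 0.0429) or PH-failure replicate 1 (-0.62, adjusted p = 0.039). ATP8 to ATP6, which lie on 1 messenger, averaged 0.572 ± 0.054 in low PAP, 0.634 ± 0.021 in PH-healthy and 0.632 ± 0.062 in PH-failure (all-PH difference 0.15, exact permutation p = 0.0563, adjusted p = 0.113). ND4L to ND4, also on a shared messenger and given without a test, averaged 0.345 ± 0.045, 0.425 ± 0.022 and 0.423 ± 0.076. In deposited RPKM, the genes that share a messenger thus did not have equal levels per length in any group. ATP8 and ATP6 overlap by 40 bases and ND4L and ND4 by 7, and how reads there were counted was not given.

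The make-up of the mitochondrial reads shifted modestly, and is described without a test. Complex IV genes took 59.0 ± 3.0% of them in low PAP, 55.3 ± 3.3% in PH-healthy and 55.1 ± 4.0% in PH-failure. Complex III (CYTB) took 6.86 ± 0.63%, 8.31 ± 0.66% and 8.06 ± 0.51%. Complex I took 20.3%, 21.7% and 22.2% and complex V 13.8%, 14.7% and 14.6%. ND4 was the only gene whose share was apart between all PH and all low-PAP animals, at 4.33 to 5.66% in low PAP and 5.69 to 6.72% in PH, while the share of COX1 was 37.6 to 48.7% and 34.99 to 42.6%. Shares of a whole are tied to each other, so a lower share of COX1 raises those of the rest.

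Most nuclear partners of the same complexes also fell. In the all-PH comparison 60 of 77 nuclear subunits of complexes I, III, IV and V fell and none rose, where 10.4% of all genes fell and 37.3% rose. Their median log2 fold change was -0.54, with a range of -0.93 to 0.19. By complex, 30 of 37 fell in complex I, 9 of 9 in complex III, 8 of 15 in complex IV and 13 of 16 in complex V. The medians for nuclear and mitochondrial subunits were -0.54 and -0.04 in complex I, -0.54 and -0.08 in complex III, -0.49 and -0.48 in complex IV, and -0.54 and -0.20 in complex V. Whether the genomes differ was not tested. Quantile normalization brought the mitochondrial median of complex IV, the value of COX1, to -0.09. It kept the nuclear medians below 0, at -0.22 to -0.32, but left 24, 4, 6 and 4 lower calls, with 1 complex I subunit called higher. Over all 11374 genes, 2405 fell and 1930 rose under that scaling. In complex II, which has no mitochondrial subunit, 1 of 4 genes fell, SDHB, its iron-sulfur subunit (-0.41 ± 0.12, limma adjusted p = 0.0119), and its call was lost under quantile normalization.

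**Figure D4:**
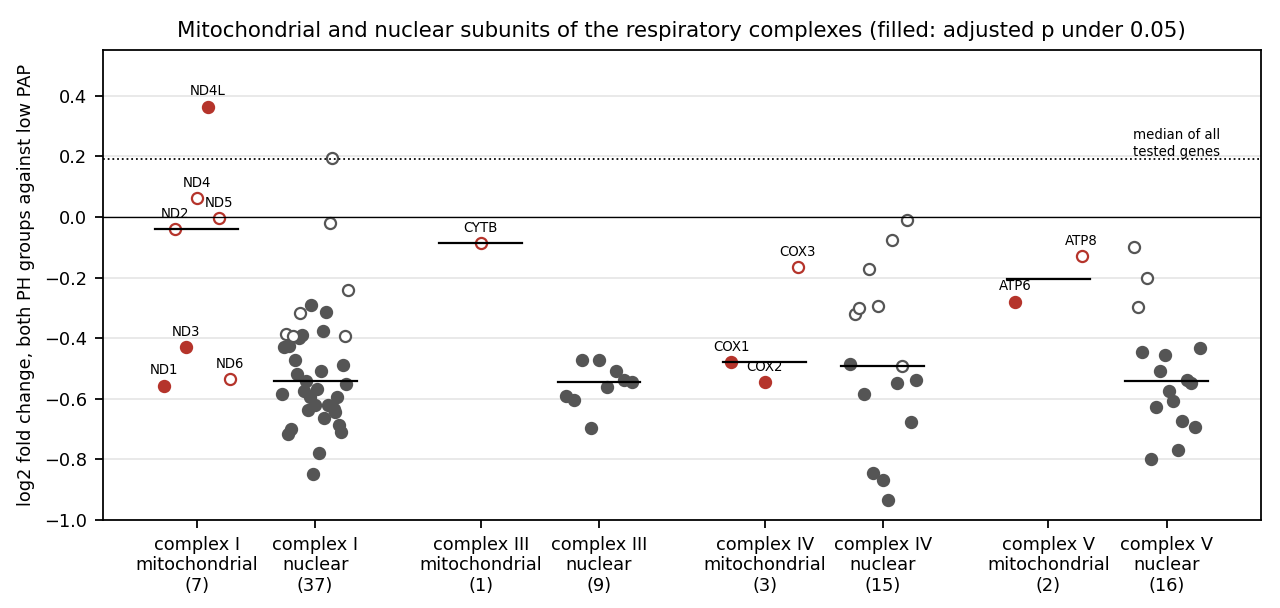
Log2 fold change between both PH groups and low PAP for each mitochondrial (red) and nuclear (grey) subunit of complexes I, III, IV and V, with the number of genes under each column; filled points have a limma adjusted p under 0.05, black lines are medians and the dotted line is the median of all tested genes. The nuclear medians lie between -0.49 and -0.54, and the mitochondrial ones between -0.04 (complex I) and -0.48 (complex IV).

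The 4 nuclear subunits of smallest p in each complex were as follows. In complex IV, COX7A1, the heart and muscle form of a small subunit, averaged 2404 RPKM in low PAP, 1261 in PH-healthy and 1246 in PH-failure. It changed by -0.93 ± 0.16 on the log2 scale (limma adjusted p = 0.000855). COX6C, another small subunit, stood at -0.87, COX7B at -0.55 and NDUFA4, first described in complex I and now placed in complex IV, at -0.54. In complex I they were NDUFB3 (-0.85), NDUFB6 (-0.78) and NDUFA2 (-0.70), accessory subunits, and NDUFS4 (-0.64), an accessory subunit needed for full activity. In complex III, UQCRB stood at -0.70, UQCR10 at -0.60, the core protein UQCRC2 at -0.56 and UQCRH at -0.54. In complex V they were ATP5I (-0.77), ATP5O (-0.69), ATP5J (-0.67) and ATP5F1 (-0.63), stalk and membrane parts of the synthase. Without any 1 library these calls held.

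Because the 2 genomes supply the same complexes, the mean level per length of the mitochondrial subunits can be set over that of the nuclear ones in each library. In complex III this ratio was 14.2 ± 2.8 in low PAP, 19.9 ± 2.8 in PH-healthy and 19.7 ± 3.5 in PH-failure. In complex V it was 23.0 ± 2.3, 27.9 ± 0.75 and 28.5 ± 8.3, in complex I 18.7 ± 2.5, 20.6 ± 1.9 and 22.6 ± 6.1, and in complex IV 32.3 ± 7.4, 36.4 ± 4.5 and 36.2 ± 5.3. The means were higher in both PH groups for all 4 complexes. In PH-failure, replicate 3 held the highest ratio in complexes I and V (29.2 and 37.3). Replicate 1 of that group lay below the low-PAP mean in complexes I, IV and V, at 17.3, 30.7 and 20.7. PH-healthy replicate 2 did so in complex IV (31.8). The ranges over animals overlapped those of low PAP, except for complex V in PH-healthy, at 27.4 to 28.8 against 19.7 to 26.4.

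Of 62 genes of the machinery that maintains and expresses the mitochondrial genome, 8 rose and 16 fell with deposited RPKM. The counts were 7 and 20 with non-mitochondrial scaling, 5 and 34 with median-ratio scaling and 4 and 31 with quantile normalization. Over all 11374 genes, in the same order from deposited RPKM on, 4243, 3401, 2373 and 1930 rose and 1178, 1671, 2656 and 2405 fell. The balance thus depended on the scaling, for all genes as for these. Of 12 transcription genes, 2 rose and 3 fell in the all-PH comparison. GABPA (nuclear respiratory factor 2 alpha, an activator of respiratory chain genes) rose by 0.56 ± 0.12 (limma adjusted p = 0.00324), and NRF1, another such activator, by 0.37 ± 0.11 from a low level (1.13 RPKM in low PAP). NRF1 lost its call under quantile and median-ratio scaling. TFB2M, which melts the mitochondrial promoter for the polymerase, fell by 0.41 ± 0.10 on the log2 scale (30.9 RPKM in low PAP, 23.8 in PH-healthy and 22.0 in PH-failure; adjusted p = 0.00553). TEFM, the mitochondrial elongation factor, listed as C19H17orf42, fell by 0.42 ± 0.11 (adjusted p = 0.00727).

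Of 23 genes of RNA processing and stability measured, 2 rose and 4 fell. TRMT10C and HSD17B10, subunits of the mitochondrial RNase P that cuts transfer RNAs at their 5′ ends, fell by 0.44 ± 0.10 and 0.58 ± 0.15 (limma adjusted p = 0.00408 and 0.00767). SLIRP, which with LRPPRC stabilizes mitochondrial messengers, fell by 0.47 ± 0.13 (adjusted p = 0.00999). PDE12, which removes poly(A) tails in mitochondria, rose by 0.55 ± 0.15 (adjusted p = 0.00938), with the call lost under quantile normalization. The median of the list was -0.06, and 12 of its genes fell under median-ratio scaling against 4 with deposited RPKM. Over all 11374 genes, 2656 and 1178 fell.

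Of 11 genes of mitochondrial DNA maintenance, 2 rose and 4 fell. TK2 and RRM2B, which supply DNA precursors outside S phase, rose by 0.43 ± 0.08 and 0.70 ± 0.15 (limma adjusted p = 0.00153 and 0.00368), and TK2 lost its call under quantile normalization. SSBP1, the single-strand DNA-binding protein of the replication fork, fell by 0.46 ± 0.10 (adjusted p = 0.00323), and SLC25A4, the heart form of the ADP/ATP carrier, by 0.51 ± 0.11 (adjusted p = 0.00412). Of 16 translation factors, 2 rose and 5 fell. TACO1, an activator of COX1 translation, rose by 0.70 ± 0.16 (2.67 RPKM in low PAP, 4.65 in PH-healthy and 4.92 in PH-failure; adjusted p = 0.0046) while COX1 RNA was lower. GFM1, an elongation factor, rose by 0.32 ± 0.08 (adjusted p = 0.00556), and lost its call under median-ratio scaling. MTRF1L and ICT1, release factors of the mitochondrial ribosome, fell by 0.36 ± 0.08 and 0.48 ± 0.12 (adjusted p = 0.00436 and 0.00629). Against the background of 10.4% lower and 37.3% higher over all genes, each of these 4 lists had a larger share of lower calls and a smaller share of higher calls with deposited RPKM.

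Nuclear genes were ranked by how closely their log2 level followed the mean log2 level of the 13 genes over the 12 libraries. The closest were TRD@ (the T cell receptor delta locus, Pearson's r = 0.90), NKG2A (a receptor of natural killer cells, 0.89), NCOA7 (0.88), CTSW (a protease of cytotoxic lymphocytes, 0.88), CD244 (a receptor of such cells, 0.85) and C14orf180 (0.85). TRD@ averaged 4.04 ± 0.96 RPKM in low PAP and 1.86 ± 0.91 in the PH animals, and the summed T and NK cell markers ranged from 15.1 to 20.9 RPKM in low PAP and from 8.22 to 16.3 in PH. Of these markers only TRAC passed, with a log2 fold change of -0.42 ± 0.11 in all PH (limma adjusted p = 0.00889). CD3E, CD3G, CD2 and CD3D changed by -0.48, -0.24, -0.20 and -0.10 and did not pass (limma adjusted p = 0.0682, 0.213, 0.207 and 0.569). The most opposed were HARS, the histidyl-tRNA synthetase (-0.96), NOVA1, a splicing factor (-0.94), TEF (-0.93) and RPA1, which binds single-stranded DNA (-0.93). The libraries share the group difference and the RPKM denominator, so these values describe the ranking only. Of the 77 nuclear respiratory subunits, 1 was among the 100 closest of 10801 genes.

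The authors' deposited table gives its own fold changes between high and low pressure, with false discovery rates. Its means differ from those over the 12 libraries used here, at 15051 and 10998.6 RPKM for ND1 in low and high pressure in the authors' deposited table against 14499 and 9766 RPKM here, so the animals behind them may not be the same. COX2 had a fold of -1.39 in the authors' deposited table, with a rate of 0.0137, and ND1 a fold of -1.37, with a rate of 0.0376. These were the 2 of 13 genes with a rate under 0.05 in the authors' deposited table. ATP6, COX1 and ND3 followed in the authors' deposited table with folds of -1.19, -1.29 and -1.29 and rates of 0.0543, 0.0598 and 0.0731, and ND4L had a fold of 1.25 and a rate of 1.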

How the data were processed

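Per the labels' protocols, Trizol was used to harvest the RNA, and the libraries followed Illumina's standard methods. RPKM, scaled to exon length and mapped reads, is the unit the authors deposited for 24616 genes, per the file headers, with their own fold changes, p-values and false discovery rates between pressure groups. The aligner, the counting rules, the use of strand and the build were not given in the sources used here. Positions are the table's, with 1 added to each start so that they count from 1, since all 37 MT entries then match RefSeq's (assembly ARS-UCD2.0, used for names and types only). No sequence is printed. Columns left out numbered 0.

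Reads were recovered from the RPKM steps. All 11374 tested genes came out whole within 0.05 reads (100% of values). Genes reaching 1 RPKM in 3 or more libraries entered limma 3.58.1 (R 4.3.3) on log2(RPKM + 1), with trend and robust moderation, in 1 model of 3 groups with Benjamini-Hochberg adjustment over all 11374 genes. Fold changes refer to log2(RPKM + 1), which understates those of low genes. The count test planned for files with counts was not the main test because the unit is RPKM; limma-voom on the recovered reads was an alternative. Ratios were tested by 2-sided exact permutation, adjusted over 12 tests. Alternatives were other scalings (quantile, median-ratio, non-mitochondrial reads), a pseudocount of 0.1, no filter, library series as a term or alone, the replicate number as a block, and each library left out. On simulated data with 11374 genes, 91 of 100 changes of 1 log2 unit and 52 of 100 of 0.5 were called for all PH against low PAP. So were 13 of 11174 unchanged genes. In the real data 5421 of 11374 genes were called in this comparison. The adjustment acts differently with so many changes, so the simulated rates do not carry over. Other steps used pandas 2.3.3 and numpy 2.4.6 in Python 3.11.15, with matplotlib 3.10.9 for plots.

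The members, the lists of nuclear genes and the ratios were chosen with earlier results of these data known. All MT genes are accounted for. Nuclear genes named are up to 4 per list and comparison of smallest p among those called (1 where none was), given for the all-PH comparison, and the 6 most and 4 least alike genes. Each library is 1 animal, so the tests compare group differences with the variation between animals, which limma moderates over all genes.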

Additional observations from a re-analysis of the deposited data

Results flagged for a closer look

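In 4 of 17 sets of 6 low-PAP values looked at, 1 animal lay apart from the others by more than Dixon's limit of 0.625 for the gap to the nearest animal over the whole range. Chance does so in about 1 in 20 sets. COX1 was at 80945 RPKM in low-PAP replicate 1 (gap over range 0.782), with 58636 RPKM in the next animal. ND5 was at 2235 RPKM in the same animal (0.642), against 1776 RPKM in the next. The mitochondrial share of exon reads was 29.7% there (0.725), against 24.4% in the next. ND4L was at 3426 RPKM in low-PAP replicate 6 (0.633), against 2617 RPKM in the next. The sets are not independent, since 3 of the 4 come from 1 library.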

How the results depend on the processing

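With RPKM as deposited, 3, 4 and 6 mitochondrial genes were called in PH-failure, PH-healthy and all PH against low PAP. Over all 11374 genes, 3848, 3951 and 5421 were called. Quantile normalization gave 1, 1 and 2, where 2551, 3046 and 4335 of all genes were called. Median-ratio and non-mitochondrial scaling both gave 5 in PH-failure, where 3220 and 3249 of all genes were called. Fits of series 55 or series 56 alone kept none of these calls, with 6 libraries each and 1 library in a PH group. Against low PAP, fewer of all genes were called there too, but calls among all genes remained. The sign was as with all libraries in 12 of 13 genes in all PH in both series. Leaving out 1 library gave 1 to 6 genes in PH-failure, 0 to 5 in PH-healthy and 4 to 7 in all PH. Over all genes the counts were 1540 to 4669, 1890 to 4643 and 4422 to 5977. CYTB, not called as deposited, turned higher and was called under quantile normalization, at 0.38 in PH-healthy (limma adjusted p = 0.0142) and 0.32 in all PH (0.00754); these were the only 2 of 1144 values for mitochondrial genes that were called in the opposite direction. Of the 1144, 949 kept direction and call, 92 lost and 19 gained a call, and 82 were uncalled changes of sign. Of 33 nuclear genes named for all PH, 0 lost their call without a single library and 30 lost it in 1 or both series alone.

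The log2 difference in CYTB to ND1 was 0.33 to 0.57 (PH-failure), 0.46 to 0.58 (PH-healthy) and 0.41 to 0.54 (all PH) with 1 library left out. Its adjusted p then rose to at most 0.171, 0.117 and 0.052. For PH-failure and PH-healthy, fewer animals also raise the smallest p that the exact permutation test allows. In series 55 alone the PH-failure difference was 0.16, from 1 PH-failure library.

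Replicate numbers are shared between groups, but the animals differ and the deviations of same-numbered libraries correlated by only -0.26 to 0.19, so the numbers name samples and do not pair them. With the replicate block, 1, 0 and 3 mitochondrial genes were called (COX2 in PH-failure, and ND6, COX2 and ND1 in all PH). Over all 11374 genes, 1379, 1834 and 3027 were called with the block. CYTB to ND1 then differed by 0.50, 0.59 and 0.54. Depth limited little, since every mitochondrial value rests on at least 11245 reads.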
